A study of Mus musculus with 12 samples.

Results

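The hearts described here are 6 of the 12 in the study, 3 vehicle-treated mice after myocardial infarction (MI) and 3 vehicle-treated mice after a sham operation, chosen by the labels alone. Each library held myocardial RNA of a single male C57BL/6 wild-type mouse. Vehicle was injected into the abdomen once a week for 6 weeks at lights-on beginning 2 weeks after the operation, and hearts were collected 24 hours past the final dose. The labels put the mice at about 10 weeks of age in one field and about 16 weeks in another. The other 6 hearts had the same operations followed by weekly prednisone at 1 mg/kg, a synthetic glucocorticoid, and enter here to help estimate the spread between mice and in a last comparison. The labels do not say how the infarct was made, how large it was, or whether scar, border or remote muscle was sampled, which limits these hearts as a model of any single zone.

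After an infarct, dead muscle is replaced by a collagen scar laid down by activated fibroblasts, while surviving cardiomyocytes stretch, enlarge and return in part to a fetal programme of contractile and hormone genes. Adult heart muscle draws most of its energy from fatty acid oxidation in mitochondria, and a failing heart is known for lower levels of many of those genes. Macrophages clear debris early after the injury and remain in the scar, and lymphatic vessels sprout as the heart heals.

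Nppa and Nppb encode the natriuretic peptides, Ankrd1 encodes a stretch-responsive protein of the sarcomere and nucleus, and Acta1 encodes skeletal muscle actin, which the fetal heart uses. All 4 rose together after MI, and their promoters are shown because the 4 genes are the abundant, classical members of that programme. The windows run from 250 bases before to 50 after the RefSeq transcription start (GRCm38.p6), 5′ to 3′ on the gene's strand, with the M-CAT core CATTCC in capitals on either strand (GGAATG when read on the other strand). Nppa is at chr4:148000472-148000771 (plus strand), Nppb at chr4:147985650-147985949 (plus), Ankrd1 at chr19:36119795-36120094 (minus) and Acta1 at chr8:123894726-123895025 (minus).
Nppa: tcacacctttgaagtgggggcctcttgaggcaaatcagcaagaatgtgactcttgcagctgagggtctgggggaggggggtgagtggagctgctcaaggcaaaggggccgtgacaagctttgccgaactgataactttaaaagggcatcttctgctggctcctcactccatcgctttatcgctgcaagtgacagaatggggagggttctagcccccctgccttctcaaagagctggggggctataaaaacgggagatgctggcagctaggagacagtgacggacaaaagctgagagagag
Nppb: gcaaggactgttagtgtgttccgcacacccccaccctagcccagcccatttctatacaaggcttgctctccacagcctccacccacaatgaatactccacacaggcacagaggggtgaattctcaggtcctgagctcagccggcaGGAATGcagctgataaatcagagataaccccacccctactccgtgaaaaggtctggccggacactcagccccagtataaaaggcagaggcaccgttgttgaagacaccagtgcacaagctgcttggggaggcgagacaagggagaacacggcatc
Ankrd1: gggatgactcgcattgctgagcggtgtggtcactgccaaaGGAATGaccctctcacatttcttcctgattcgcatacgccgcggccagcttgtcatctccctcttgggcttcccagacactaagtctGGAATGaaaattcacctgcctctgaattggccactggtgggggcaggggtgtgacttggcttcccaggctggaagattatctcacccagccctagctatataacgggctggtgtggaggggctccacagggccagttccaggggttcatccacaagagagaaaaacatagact
Acta1: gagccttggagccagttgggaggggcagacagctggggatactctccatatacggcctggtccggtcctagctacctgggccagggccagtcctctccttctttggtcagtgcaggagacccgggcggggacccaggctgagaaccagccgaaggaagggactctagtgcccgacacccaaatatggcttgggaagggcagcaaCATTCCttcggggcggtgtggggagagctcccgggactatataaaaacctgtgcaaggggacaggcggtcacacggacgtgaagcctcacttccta
The M-CAT core, the site recognised by TEAD factors, occurred in 3 of the 4 windows and in 14.7% of 32851 windows of the same length. Over all 24 stretch and fetal isoform genes with a window, the M-CAT core occurred for 9, the CArG box for 5, the GATA motif for 4 and the TATA motif for 8, against 16.6%, 1.81%, 12.7% and 15.7% of all gene symbols, respectively. A CArG box, the site of serum response factor, occurred in the Acta1 window alone of the 4 and in 1.63% of all windows. The GATA motif AGATAA occurred in the Nppb and Ankrd1 windows and in 11.2% of all windows. The TATA motif TATAAA, which a CArG box can contain, occurred in 3 of the 4 windows and in 13.6% of all windows. A match is a run of letters in the window, and binding was not measured.

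Levels are TPM, a length-corrected abundance with a fixed total, so each value is a share of its library, and the number of reads behind a library is unknown. Among the 13158 genes that reached 1 TPM in at least 3 of the 12 libraries, the median gene was 0.39 higher in MI than in sham on the log2(TPM + 1) scale. Values are therefore given as deposited and again after median-ratio rescaling, which sets the median gene to 0.00. The limma adjusted p, which shares its estimate of the spread over all 12 hearts, called a gene changed when it was under 0.05. Rescaling moved the split between directions: 15.1% of genes were called higher and 0.904% lower as deposited, against 3.24% higher and 3.22% lower after rescaling. There were 538 genes called in the same direction in both scalings. The calls rest on the shared spread: fitted on the 6 vehicle hearts alone, 2 genes passed, Cilp and Thbs4, although 3370 had an unadjusted limma p under 0.05. Leaving out sham mouse 1, 2 or 3 left 168, 1161 or 120 genes called as deposited, and leaving out MI mouse 1, 2 or 3 left 5631, 1586 or 966, against 2100 with all 6. Fewer cells of a type and less RNA per cell cannot be told apart in whole tissue. Differences on the log2 scale carry the SE from the 12-heart fit, and means carry the SD over 3 mice. That fit pools groups of unequal spread. The median gene had a log2 SD of 0.332 among MI vehicle mice and 0.141 among sham vehicle mice. Under prednisone these SDs were 0.187 (MI) and 0.123 (sham). After rescaling the vehicle SDs were 0.224 (MI) and 0.123 (sham), and the prednisone SDs 0.187 and 0.11. The SE and adjusted p of the vehicle comparison may therefore be too small.

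**Figure D1:**
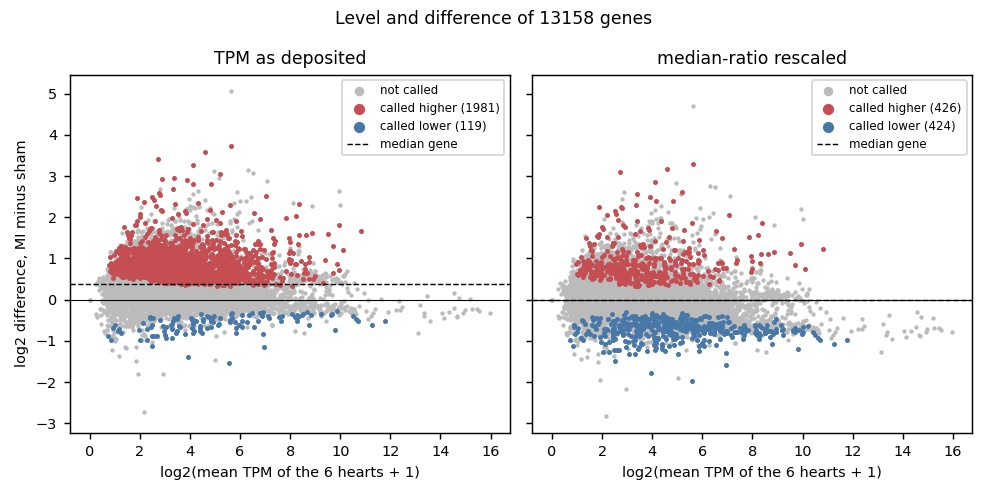
Each point is a gene, with the log2 of its mean TPM over the 6 vehicle hearts plus 1 on the horizontal axis and its log2 difference, MI minus sham, on the vertical axis. Red and blue points passed the adjusted p of 0.05; the dashed median line lies at 0.39 in the left panel and at 0.00 in the right, where the calls divide into 426 higher and 424 lower.

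MI mouse 3 stood apart from the other vehicle hearts. It had 14307 genes at 1 TPM or more, against 11690 to 12620 in the other 5 hearts, and mitochondrial transcripts made up 23.1% of its TPM against 35.2% to 42.0%. Its 8 markers of immature thymocytes, a list chosen after these values were seen, summed to 513 TPM, against 0.497 to 24.3 TPM in the sham hearts and 0.988 and 1.14 TPM in the other MI hearts. Dntt, the polymerase that diversifies antigen receptors, was at 136 TPM in this heart, at 1.89, 6.22 and 0.0263 TPM in the sham hearts and listed at 0 in the other MI hearts. B cell markers summed to 5452 TPM in MI mouse 3 and to 73.3 and 2107 TPM in the other MI mice, and adipocyte markers to 592 TPM against 4.77 and 217 TPM. The sham hearts spanned 14.4 to 832 TPM for B cell and 8.86 to 141 TPM for adipocyte markers. Without this mouse, 6.95% of genes were called higher and 0.395% lower as deposited, and 2.35% and 1.97% after rescaling. There were 244 genes called higher and 46 called lower in all 4 fits, with and without rescaling and with and without MI mouse 3. The part of these other tissues in the results was not tested, and most list counts below are followed by those without the mouse.

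**Figure D2:**
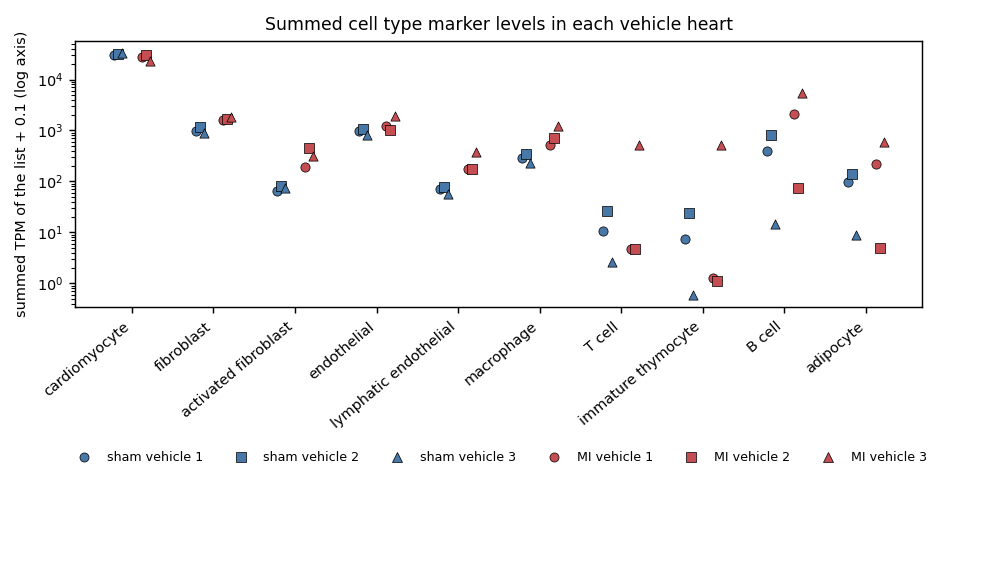
The vertical axis, on a log scale, is the summed TPM of each list of cell type markers plus 0.1, with a point for each vehicle heart. MI mouse 3 is the highest for T cell, immature thymocyte, B cell and adipocyte markers, while activated fibroblast markers lie at 194 to 458 TPM in all 3 MI hearts and at 65.5 to 82.6 TPM in the sham hearts.

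The tissue carried the markers of its label. The 8 cardiomyocyte markers summed to 30884 to 33434 TPM in the sham hearts and 23299 to 30061 TPM in the MI hearts. Markers of atrial muscle, a possible part of a dissected heart, summed to 908 to 2629 TPM in sham and 2901 to 4239 TPM in MI. That sum includes Nppa, which rose, and most other members went the other way. The list's median difference was -0.54 as deposited and -0.97 rescaled, and after rescaling 6 of the 8 markers were lower and 2 higher. The atrial light chain Myl7 was lowest in MI mouse 2 at 64.0 TPM, against 195 to 619 TPM in the other 5 hearts.

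Most stress and stretch genes rose as deposited. Of 13 tested natriuretic peptide and stretch genes, 10 were called higher and 0 lower, beside the 15.1% and 0.904% of all genes. After rescaling 4 stayed called higher, and without MI mouse 3 there were 9. The median difference was 0.74 as deposited and 0.28 rescaled, against 0.39 and 0.00 over all genes. Nppa was at 901, 1333 and 478 TPM in the sham hearts and 2050, 2840 and 3228 TPM in the MI hearts, a difference of 1.68 (SE 0.33, limma adjusted p = 0.0136). Nppb, its neighbour on chromosome 4, was at 85.2, 91.1 and 150 TPM in sham and 389, 749 and 510 TPM in MI, a difference of 2.32 (SE 0.30). Every MI heart was above every sham heart for both peptides. Ankrd1 was at 416, 432 and 408 TPM in sham and 1039, 2068 and 1500 TPM in MI, a difference of 1.82 (SE 0.21). The sham hearts were close together and the MI hearts spread over a wider range, with mouse 2 the highest. Gdf15, a stress-induced hormone of the TGF-beta family, rose from 0.774 ± 0.262 to 10.6 ± 6.01 TPM (SD, n = 3 each). Nppa was not called after rescaling once MI mouse 3 was left out, whereas the other genes named here were. MI mouse 2 was the highest MI heart for 11 of the 13 genes after rescaling and MI mouse 3 for 0.

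Among fetal contractile isoforms, Myh7 and Acta1 rose by the most. The shares of all genes called higher were 15.1% as deposited and 3.24% after rescaling, or 6.95% and 2.35% without MI mouse 3. Of the 11 tested isoforms 5 were called higher and 0 lower, 3 were called higher after rescaling, and 3 without MI mouse 3 in either scaling. The 5 were Myh7, Acta1, Tpm2, Acta2 and Actn1, of which Acta2 and Actn1 are also expressed outside cardiomyocytes. Myh7, the slow beta-myosin heavy chain, was at 32.6, 38.8 and 37.8 TPM in sham and 168, 349 and 162 TPM in MI, a difference of 2.52 (SE 0.27, limma adjusted p = 0.00407). Myh6, the fast alpha chain of the adult mouse ventricle, was at 2846, 3034 and 2933 TPM in sham and 2242, 1959 and 1622 TPM in MI, a difference of -0.61 (SE 0.13, limma adjusted p = 0.0165). Neither gene's groups overlapped. The genes lie side by side on chromosome 14, Myh6 at 54941921 to 54966927 and Myh7 at 54970684 to 54994626 on the minus strand (GRCm38, GENCODE M21). Because both values come from the same library, their ratio does not depend on scaling. Myh7 made up 1.13%, 1.26% and 1.27% of the summed Myh6 and Myh7 TPM in the sham hearts and 6.97%, 15.1% and 9.10% in the MI hearts. Acta1 made up 2.16% ± 0.635 (SD, n = 3) of the summed Acta1 and Actc1 TPM, where Actc1 is cardiac actin, in sham and 8.38% ± 2.34 in MI. These pairs were chosen after their values were seen, the paralogs share sequence that could have split reads between them, and 3 mice against 3 cannot reach an exact two-sided permutation p below 0.1.

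A few genes of the adult contractile apparatus fell. Over all genes, 15.1% were called higher and 0.904% lower as deposited, and 3.24% and 3.22% after rescaling. Without MI mouse 3 these shares were 6.95% and 0.395% as deposited, and 2.35% and 1.97% after rescaling. Of 21 adult sarcomere genes, 0 were called higher and 5 lower as deposited, with 4 lower after rescaling. Without MI mouse 3, 2 were called higher (Mybpc3 and Myom2) and 1 lower (Myh6) as deposited, and 0 and 4 after rescaling. The list's median was -0.06 as deposited and -0.52 rescaled. Tnni3, cardiac troponin I, fell from 4107 ± 129 to 2878 ± 404 TPM, and Tcap, the Z-disc cap of titin, fell from 1829 ± 42.7 to 1318 ± 146 TPM (SD, n = 3 each). Ttn, titin itself, was at 31.4, 41.5 and 30.4 TPM in sham and 22.7, 24.7 and 16.7 TPM in MI, a difference of -0.67 (SE 0.20), and was not called in either scaling without MI mouse 3. In calcium cycling, 1 of 16 genes was called higher (Fkbp1b, a regulator of the ryanodine receptor, difference 0.96) and 2 lower, and without MI mouse 3 the counts were 1 and 0. Cacna1c, the pore of the L-type calcium channel, was at 28.2 ± 2.12 TPM in sham and 21.3 ± 2.72 TPM in MI. Hrc, a calcium-binding protein of the sarcoplasmic reticulum, was at 356 ± 3.51 and 254 ± 47.8 TPM. Without MI mouse 3, Tnni3, Tcap, Cacna1c and Hrc were called lower after rescaling and were not called as deposited. Atp2a2, the calcium pump SERCA2, was at 2382, 2651 and 2731 TPM in sham and 2057, 1937 and 1601 TPM in MI. Its groups did not overlap, but its difference of -0.48 (SE 0.19) had a limma adjusted p of 0.091.

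Some potassium channel genes fell. Of 17 tested channels and subunits, 0 were called higher, 2 were called lower as deposited and 6 after rescaling, and 1 and 3 were called lower without MI mouse 3. The shares of all genes called lower were 0.904% as deposited and 3.22% after rescaling, or 0.395% and 1.97% without MI mouse 3. The rescaled difference was below 0 for all 17, passed or not. The list's median was -0.28 as deposited and -0.72 rescaled. Kcnv2, a silent subunit that modifies other channels, fell from 1.88, 1.75 and 1.66 TPM in sham to 0.868, 0.568 and 0.503 TPM in MI (difference -0.75, SE 0.16, limma adjusted p = 0.018). Kcnj3, a subunit of the acetylcholine-gated channel, was at 19.8 ± 3.49 TPM in sham and 12.1 ± 2.87 TPM in MI, with an adjusted p of 0.0308 by limma, and was called without MI mouse 3 after rescaling alone. Kcnd2, a pore subunit of the transient outward current, was at 4.85 ± 0.717 and 2.87 ± 0.622 TPM and had a limma adjusted p of 0.0647. Of 18 sodium channel, pacemaker and intercalated disc genes, 0 were called higher and 1 lower, and 0 were called lower without MI mouse 3. The called gene was Scn4a, the skeletal muscle sodium channel, at 8.99 ± 0.513 TPM in sham and 5.37 ± 0.548 TPM in MI, and it was not called without MI mouse 3.

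Most collagen genes rose as deposited, where 15.1% of all genes were called higher. After rescaling 3.24% of all genes were called higher, and without MI mouse 3 the shares were 6.95% as deposited and 2.35% rescaled. Among fibrillar collagens 5 of 8 tested genes were called higher, among other collagens 16 of 17, and 0 of either list lower. After rescaling the counts were 4 and 5, and without MI mouse 3 they were 5 and 12 as deposited and 5 and 6 rescaled. The fibrillar list had a median of 1.32 as deposited and 0.89 rescaled. Col1a2, a chain of type I collagen, was at 21.9, 26.7 and 18.7 TPM in sham and 64.8, 135 and 72.4 TPM in MI, a difference of 1.91 (SE 0.26, limma adjusted p = 0.00526). Col8a1 and Col8a2, the chains of the short-chain collagen VIII, had differences of 2.07 (SE 0.30) and 2.37 (SE 0.31). Col8a2 was at 0.393, 0.410 and 0.383 TPM in sham and 3.30, 9.66 and 7.12 TPM in MI. The sham hearts for Col8a2 were nearly identical and the lowest MI heart was far above them. Col12a1, a fibril-associated collagen, rose from 0.412 ± 0.263 to 3.37 ± 1.57 TPM. Col4a1, of basement membranes, rose from 56.9 ± 4.34 to 121 ± 32.4 TPM but was not called after rescaling (difference 0.59, limma adjusted p = 0.0995). Col1a1 as a share of Col1a1 plus Col3a1 overlapped between groups, at 15.8% to 18.3% in sham and 16.4% to 24.2% in MI.

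Matricellular proteins, which sit in the matrix and signal to cells, were called higher for 18 of 24 tested genes and lower for 0, for 12 after rescaling, and without MI mouse 3 for 15 as deposited and 11 rescaled. Their median was 1.22 as deposited and 0.83 rescaled. Calls of a rise covered 15.1% of all genes as deposited and 3.24% rescaled, or 6.95% and 2.35% without MI mouse 3. All MI hearts lay above all sham hearts for 21 of the 24 as deposited and 15 after rescaling, beside 40.8% and 15.1% of all genes. Thbs4, a thrombospondin of stressed muscle, was at 1.27, 1.56 and 1.30 TPM in sham and 14, 21.0 and 17.3 TPM in MI, a difference of 2.94 (SE 0.27, limma adjusted p = 0.00147). Fn1, fibronectin, rose from 13.0 ± 4.54 to 61.7 ± 28.8 TPM, and Sparc, a collagen-binding protein, from 137 ± 11 to 374 ± 110 TPM. Spp1, osteopontin, which macrophages secrete, was at 0.660, 0.966 and 0.442 TPM in sham and 4.16, 16.0 and 7.25 TPM in MI. Wisp2 (also called Ccn5), of the CCN family, rose from 6.23 ± 0.758 to 64.5 ± 37.0 TPM, a difference of 3.04 (SE 0.41). MI mouse 2 was the highest of the MI hearts for 20 of the 24 genes after rescaling.

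Small leucine-rich proteoglycans and other proteoglycans, which organise collagen fibrils, were called higher for 11 of 13 tested genes, for 3 after rescaling, and without MI mouse 3 for 9 and 4. In the same order, the shares of all genes called higher were 15.1%, 3.24%, 6.95% and 2.35%. Bgn, biglycan, was at 83.6, 104 and 79.1 TPM in sham and 235, 503 and 372 TPM in MI, a difference of 1.99 (SE 0.27). Fmod, fibromodulin, rose from 9.36 ± 3.06 to 35.2 ± 7.69 TPM and Prelp from 18.3 ± 2.81 to 58.8 ± 15.1 TPM. Dcn, decorin, a fibroblast gene already abundant in sham hearts at 299 ± 38.7 TPM, was at 561 ± 21.8 TPM in MI, and was not called after rescaling (difference 0.46, limma adjusted p = 0.176). Genes that process and crosslink collagen were called higher for 16 of 23, for 6 after rescaling, and without MI mouse 3 for 12 and 6. Lox, the crosslinking lysyl oxidase, was at 1.41, 1.79 and 1.06 TPM in sham and 5.50, 18.4 and 8.99 TPM in MI, while its relative Loxl1 rose from 15.5 ± 2.40 to 42.6 ± 10.1 TPM. Adamts2, which trims procollagen, rose from 3.76 ± 0.517 to 10.5 ± 2.26 TPM.

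Elastic fibre and microfibril genes were called higher for 13 of 16 tested genes, for 6 after rescaling, and without MI mouse 3 for 9 in each scaling. Among all genes 15.1% were called higher and 0.904% lower as deposited, and 3.24% and 3.22% rescaled. Without MI mouse 3 the shares were 6.95% and 0.395%, and 2.35% and 1.97% rescaled. Eln, elastin, was at 9.30, 10.4 and 7.93 TPM in sham and 22.3, 38.0 and 35.6 TPM in MI. Mfap4, a microfibril protein, had a difference of 2.81 (SE 0.35) and Ltbp2, which binds microfibrils, of 2.68 (SE 0.38). Matrix proteases and their inhibitors were called higher for 14 of 26 genes and lower for 1, or 5 and 2 after rescaling. The counts without MI mouse 3 were 9 and 0, or 7 and 1 after rescaling. Timp2, a metalloproteinase inhibitor, rose from 54.3 ± 9.67 to 126 ± 22.2 TPM. Timp1, the inducible inhibitor, was at 14.2, 62.3 and 15.2 TPM in the MI hearts, so mouse 2 set most of its SD of 27.5. Mmp3, a stromelysin, was at 2.46 ± 0.233 TPM in sham and 8.89 ± 3.35 TPM in MI but was not called after rescaling (limma adjusted p = 0.0558). The gene called lower was Adamts7, with a difference of -0.57. Adamtsl2, a microfibril-associated glycoprotein, rose from 2.82 ± 0.656 to 14.9 ± 6.51 TPM.

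Ligands, receptors and antagonists that signal to the matrix rose in part. Beside the counts below, 15.1% of all genes were called higher and 0.904% lower as deposited, and 3.24% and 3.22% after rescaling. Without MI mouse 3, 6.95% of all genes were called higher as deposited and 2.35% after rescaling. In the TGF-beta family 14 of 22 tested genes were called higher, 7 after rescaling, and 0 lower. With MI mouse 3 left out, 8 were called higher as deposited and 6 rescaled. Tgfb3, a ligand, rose from 5.82 ± 0.589 to 16.0 ± 3.25 TPM. Tgfbr2, the type II receptor, was at 12.8, 16.1 and 10.5 TPM in sham and 22.9, 24.9 and 38.5 TPM in MI, a difference of 1.06 (SE 0.19). Fstl1, a secreted follistatin-like protein, rose from 26.9 ± 2.39 to 85.3 ± 30.3 TPM. Among Wnt ligands and secreted antagonists 5 of 16 were called higher, the secreted antagonists Sfrp1, Sfrp2 and Frzb and the receptors Fzd1 and Fzd2, with 4 called higher and 1 lower after rescaling, and 4 higher without MI mouse 3. Sfrp1 was at 4.76, 5.38 and 3.67 TPM in sham and 13.0, 24.9 and 17.4 TPM in MI, and Frzb rose from 1.65 ± 0.533 to 11.3 ± 4.70 TPM. In the IGF system 5 of 12 genes were called higher in each scaling, and 4 without MI mouse 3. Igf1 was at 7.0, 5.50 and 4.44 TPM in sham and 14.3, 11.8 and 18.9 TPM in MI, with a difference of 1.26 (SE 0.21, limma adjusted p = 0.00922). Igfbp7, a secreted binding protein, rose from 123 ± 6.19 to 366 ± 125 TPM, and Igfbp4, another, from 65.5 ± 11.3 to 156 ± 34.9 TPM. Of 19 angiotensin, endothelin and adrenergic genes, 6 were called higher and 1 lower, or 3 and 1 after rescaling and 4 and 0 without MI mouse 3. Ace, angiotensin-converting enzyme, rose from 14.7 ± 0.484 to 37.4 ± 11.2 TPM, while Adra1b, an alpha-1 adrenergic receptor of cardiomyocytes, was at 16.9, 19.4 and 13.9 TPM in sham and 10.5, 8.80 and 7.41 TPM in MI. The Adra1b difference of -0.84 (SE 0.23) had a limma adjusted p of 0.0361 with all 3 MI mice and was not called without MI mouse 3.

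Innate immune genes rose in part, and MI mouse 3 held the highest values of several. Of all genes, 15.1% were called higher as deposited and 3.24% after rescaling, or 6.95% and 2.35% without MI mouse 3. The antigen presentation count below lies under the first of these shares. Complement genes were called higher for 13 of 19 tested genes, for 5 after rescaling, and for 6 without MI mouse 3. C1s1, a protease of the classical pathway, was at 19.5, 24.6 and 13.6 TPM in sham and 54.0, 39.2 and 64.7 TPM in MI, a difference of 1.41 (SE 0.23). C3, the central component, was at 82.3, 104 and 50.4 TPM in sham and 326, 103 and 290 TPM in MI. Its groups overlapped, because MI mouse 2 lay within the sham range, and it was not called after rescaling or without MI mouse 3. Chemokines and their receptors were called higher for 12 of 23 genes, for 6 after rescaling, and without MI mouse 3 for 8 as deposited and 2 rescaled. Ccl21a, a lymphatic chemokine with near-identical copies in the genome, rose from 41.8 ± 8.61 to 179 ± 103 TPM, and Ccl8, a monocyte attractant, from 6.68 ± 2.09 to 26.1 ± 3.90 TPM. Cathepsins and lysosomal genes were called higher for 15 of 18, for 5 after rescaling, and without MI mouse 3 for 11 and 3. Ctss, a macrophage protease, was at 34.9, 56.8 and 99.9 TPM in the MI hearts and 14.5 to 22.2 TPM in sham, and Ctsk, a collagen-degrading cathepsin, rose from 4.19 ± 0.841 to 12.4 ± 2.33 TPM. Interferon-stimulated genes were called higher for 10 of 21 as deposited, for 2 after rescaling, and without MI mouse 3 for 5 and 0. Ccl8 and Ctss were not called after rescaling without MI mouse 3. Antigen presentation genes were called higher for 1 of 16 (Tapbp, a peptide-loading chaperone, difference 0.86), and for 0 after rescaling or without MI mouse 3. Cd74, the invariant chain of MHC class II, was at 211, 195 and 102 TPM in sham and 221, 224 and 1005 TPM in MI, and MI mouse 3 was the highest MI heart for 16 of these 16 genes after rescaling.

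Marker lists of resident and recruited cells moved unevenly. Activated fibroblast markers were called higher for 7 of 8 tested genes and for 6 after rescaling, and macrophage markers for 6 of 8 and for 3. The counts without MI mouse 3 were 6 and 6 for activated fibroblasts and 4 and 2 for macrophages. Csf1r, the receptor for the macrophage growth factor, rose from 12.3 ± 1.79 to 27.4 ± 5.78 TPM and Cd68 from 6.86 ± 0.918 to 21.0 ± 7.44 TPM. Lymphatic endothelial markers were called higher for 5 of 6, a count that held after rescaling and without MI mouse 3. The uncalled member was Prox1, a lymphatic transcription factor. After rescaling, all MI hearts lay below all sham hearts for Prox1, beside 18.6% of all genes. Pdpn, podoplanin, was at 4.84, 5.70 and 4.24 TPM in sham and 12.6, 13.8 and 22.4 TPM in MI, a difference of 1.51 (SE 0.23, limma adjusted p = 0.0068). Mmrn1, a multimerin, was at 2.16, 2.96 and 2.01 TPM in sham and 6.76, 7.0 and 7.57 TPM in MI. Lyve1, a hyaluronan receptor that some resident macrophages share with lymphatic vessels, was at 7.44, 8.32 and 7.43 TPM in sham and 18.3, 17.3 and 35.7 TPM in MI. General endothelial markers were called higher for 5 of 8 as deposited, for 2 without MI mouse 3, and for 0 after rescaling, where 1 had an unadjusted limma p under 0.05. Pecam1 was at 46.8 ± 4.75 TPM in sham and 74.8 ± 19.2 TPM in MI, with a rescaled difference of 0.19 (limma adjusted p = 0.211). Fibroblast markers were called higher for 7 of 8 as deposited, for 5 without MI mouse 3 and for 1 after rescaling. Among the 4 to 6 tested markers of each of T cells, B cells, mast cells, adipocytes and erythroid cells, 0 passed limma and 0 had an unadjusted p under 0.05. Counts called higher as deposited were 3 of 6 smooth muscle, 3 of 6 mesothelial, 2 of 4 monocyte, 1 of 4 endocardial, 1 of 5 neutrophil, 1 of 6 pericyte, 1 of 3 cartilage and 0 of 3 Schwann markers, beside 15.1% of all genes. After rescaling, only 1 monocyte and 1 endocardial marker of these lists were called higher, beside 3.24% of all genes, and 1 smooth muscle marker was called lower. When MI mouse 3 was left out, 1 smooth muscle, 1 mesothelial, 1 monocyte and 1 endocardial marker were called higher, and 0 of the other 4 lists. In the remaining lists, 2 of 8 cardiomyocyte markers were called lower (1 without MI mouse 3), while 1 of 8 atrial (Nppa) and 1 of 3 skeletal muscle (Acta1) markers were called higher.

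**Figure D3:**
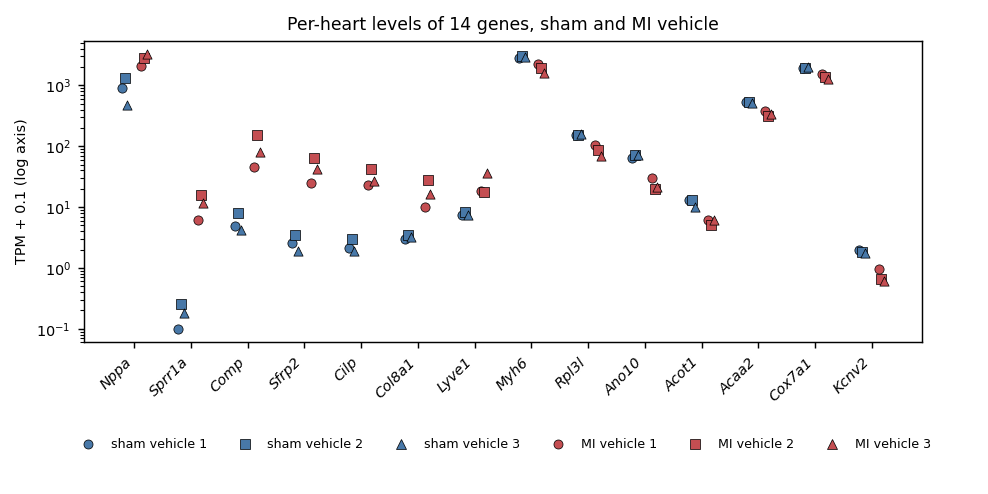
Points show the TPM plus 0.1 of 14 genes in each vehicle heart, on a log axis, sham hearts to the left and MI hearts to the right of each gene's place. For all 14 genes the sham and MI hearts do not overlap, which was a condition for choosing some of them. Over all genes, 40.8% were higher and 4.17% lower in MI without overlap as deposited. Sprr1a is between 0 and 0.156 TPM in sham and 6.14 and 15.4 TPM in MI.

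Some genes of fatty acid uptake and oxidation fell. Of 30 tested genes 0 were called higher and 10 lower, beside the 0.904% of all genes called lower, and 18 were called lower after rescaling, beside 3.22%. Without MI mouse 3 the counts were 3 as deposited and 15 after rescaling. The median was -0.32 as deposited and -0.77 rescaled, and all MI hearts lay below all sham hearts for 26 of the 30 as deposited and 27 after rescaling, beside 4.17% and 18.6% of all genes. Acaa2, the thiolase of the last step of the mitochondrial cycle, was at 535, 541 and 508 TPM in sham and 382, 314 and 335 TPM in MI, a difference of -0.62 (SE 0.11, limma adjusted p = 0.0108). Ech1, a dienoyl-CoA isomerase that is not on this list, was at 1104, 1131 and 1090 TPM in sham and 789, 650 and 579 TPM in MI. All MI hearts lay below all sham hearts for both enzymes. Hadh, a dehydrogenase of the cycle, fell from 334 ± 9.61 to 252 ± 30.6 TPM and Eci1, another isomerase, from 229 ± 2.47 to 175 ± 6.66 TPM. Both were called lower after rescaling alone when MI mouse 3 was left out. Cpt1b, which admits fatty acids to mitochondria, was at 207 ± 14 TPM in sham and 166 ± 17.4 TPM in MI, with a limma adjusted p of 0.0653 as deposited and 0.0497 after rescaling. Cd36, the fatty acid transporter of the cell surface, was at 586, 664 and 607 TPM in sham and 567, 578 and 560 TPM in MI, a difference of -0.12 (SE 0.16, limma adjusted p = 0.538).

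Few nuclear respiratory chain genes passed the test as deposited. Among 36 complex I genes 1 was called lower as deposited and 13 after rescaling, and among 41 genes of complexes II to V the counts were 3 and 15, with 0 called higher in either list. Without MI mouse 3, 0 were called as deposited and 15 and 19 after rescaling. After rescaling 35 of 36 and 39 of 41 had all MI hearts below all sham hearts, beside 18.6% of all genes. Over all genes 0.904% were called lower as deposited and 3.22% after rescaling, or 0.395% and 1.97% without MI mouse 3. The medians were -0.18 and -0.22 as deposited and -0.63 and -0.68 rescaled. Ndufv2, of complex I, was at 454, 438 and 451 TPM in sham and 367, 372 and 355 TPM in MI, a difference of -0.29 (SE 0.08). Cox7a1, the muscle isoform of a cytochrome oxidase subunit, was at 1937, 1964 and 2040 TPM in sham and 1515, 1363 and 1253 TPM in MI. Atp5c1, of ATP synthase, was at 1014 ± 21.2 and 839 ± 32.4 TPM and Sdhc, of complex II, at 344 ± 20.3 and 268 ± 22.6 TPM. Of the 13 messenger genes encoded by mitochondrial DNA, 0 were called by limma in either scaling, while 2 as deposited and 7 after rescaling had an unadjusted p under 0.05. mt-Co1 was at 67575, 70537 and 76154 TPM in sham and 63670, 65186 and 45025 TPM in MI, so its lowest value was in MI mouse 3.

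Some other fuel genes were called. Beside them, 15.1% of all genes were called higher and 0.904% lower as deposited, and 3.24% and 3.22% after rescaling. Of 27 citrate cycle and pyruvate entry genes 0 were called by limma as deposited, with 4 at an unadjusted p under 0.05, and 5 were called lower after rescaling, 4 without MI mouse 3. Mpc1, the mitochondrial pyruvate carrier, was at 450 ± 20.2 TPM in sham and 424 ± 22.3 TPM in MI. Of 24 glycolysis and lactate genes 5 were called higher (Slc2a1, Hk1, Pfkp, Pgam1 and Slc16a3) and 2 lower (Eno3, the muscle enolase, and Ldhb), or 2 and 2 after rescaling. When MI mouse 3 was left out, 2 were called higher and 0 lower, or 2 and 2 after rescaling. Pfkp, the platelet phosphofructokinase, rose from 13.8 ± 0.832 to 28.8 ± 6.5 TPM and Pgam1, a phosphoglycerate mutase, from 32.7 ± 3.72 to 66.6 ± 21.4 TPM. For branched-chain amino acid and ketone use, 1 of 19 genes was called higher and 2 lower, with 7 lower after rescaling, or 0 as deposited and 2 rescaled without MI mouse 3. Bckdhb, a subunit of the branched-chain ketoacid dehydrogenase, fell from 32.7 ± 1.42 to 22.7 ± 2.95 TPM and Ppm1k, the phosphatase that activates it, from 19.6 ± 1.04 to 13.6 ± 1.44 TPM. When MI mouse 3 was left out, Bckdhb was called after rescaling alone and Ppm1k in neither scaling. Bdh1, which oxidises the ketone body beta-hydroxybutyrate, was at 34.7, 49.6 and 61.2 TPM in sham and 69.1, 117 and 85.3 TPM in MI. It was called higher as deposited (limma adjusted p = 0.0446) and not after rescaling (limma adjusted p = 0.397). Ppargc1a, a coactivator of mitochondrial genes, was at 14.2, 15.4 and 18.3 TPM in sham and 12, 13.8 and 10.6 TPM in MI, with a limma adjusted p of 0.147. Pdk4, the kinase that shuts pyruvate entry, overlapped between groups at 151 ± 55.0 and 137 ± 52.5 TPM. Of 21 metabolic regulators and energy transfer genes 2 were called higher, Nmrk2 and Ckb, and 1 without MI mouse 3. Ckb, the brain creatine kinase, rose from 23.2 ± 0.506 to 43.1 ± 9.39 TPM as deposited and was not called after rescaling (limma adjusted p = 0.153), while the mitochondrial Ckmt2 was at 1052 ± 58.9 and 937 ± 124 TPM with a limma adjusted p of 0.242. Ckb made up 1.62% ± 0.0866 (SD, n = 3) of the summed Ckb and Ckm TPM in sham and 3.57% ± 0.795 in MI, where Ckm is the muscle creatine kinase.

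**Figure D4:**
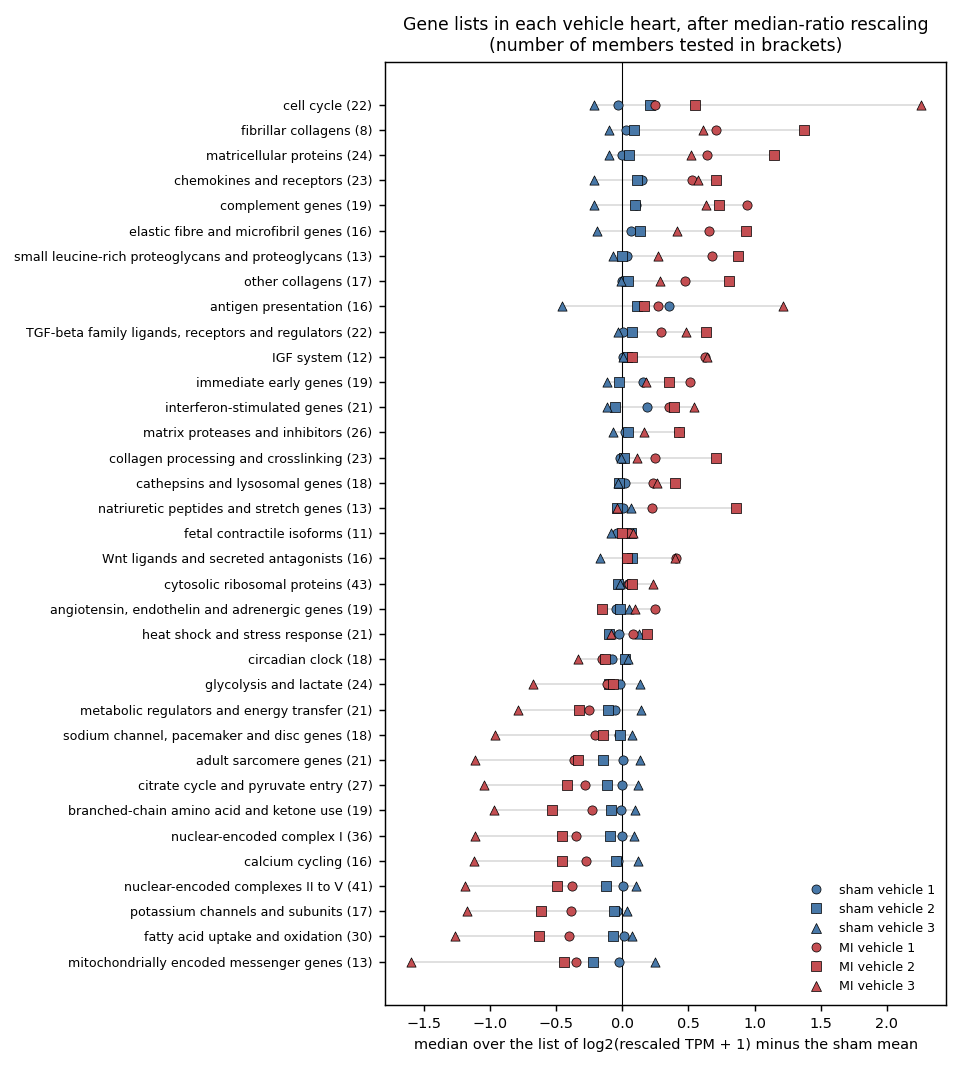
Each row is a gene list with the number of members tested, and each point is a vehicle heart, placed at the list's median log2(rescaled TPM + 1) minus the mean of the sham hearts. Matrix lists lie to the right in all 3 MI hearts, fatty acid and respiratory lists lie to the left in all 3 with MI mouse 3 the lowest at -1.27 for fatty acid genes, and cell cycle genes reach 2.26 in MI mouse 3 against 0.25 and 0.55 in the other MI hearts.

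Some cell cycle and ribosomal protein genes were called higher, beside 15.1% of all genes as deposited and 3.24% after rescaling. Of 22 tested cell cycle genes 5 were called higher (Ccnd1, Ccnd2, Mcm2, Cdkn1a and Cdkn2a), 2 after rescaling, and without MI mouse 3 the counts were 5 and 3. MI mouse 3 was the highest MI heart for 17. In that heart the median T cell marker was 4.14 above the sham mean after rescaling, and its part in the cell cycle values was not tested. Cdkn1a, the cell cycle inhibitor p21, was at 6.74, 9.20 and 9.21 TPM in sham and 16.4, 28.9 and 30.5 TPM in MI, and Cdkn2a, which encodes other inhibitors, at 0.246 ± 0.0870 and 1.86 ± 0.688 TPM. Both rose in either scaling and without MI mouse 3. Pcna, a replication clamp, was at 21.0, 26.2 and 19.2 TPM in sham and 25.0, 29.3 and 99.0 TPM in MI, and Mcm2, a replication helicase subunit, at 3.74, 5.02 and 17.7 TPM in the MI hearts. Of 43 cytosolic ribosomal protein genes 4 were called higher as deposited (Rpl3, Rpl4, Rpl10 and Rps6) and Rpl3 alone after rescaling, with 1 and 0 without MI mouse 3, the highest MI heart for 32 of the 43. Immediate early genes were called higher for 8 of 19 and for 1 after rescaling, and without MI mouse 3 for 4 and 1. Heat shock and stress response genes were called higher for 4 of 21 (Hsp90ab1, Hspb1, Hmox1 and Atf4) and for 1 after rescaling, and without MI mouse 3 for 1 and 0. Of 18 clock genes 1 was called higher as deposited (Arntl) and 1 lower after rescaling (Tef), and without MI mouse 3 the counts were 0 higher and, after rescaling, 1 lower.

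Rpl3l, a striated muscle paralog of ribosomal protein L3, fell while Rpl3 was higher. Rpl3l was at 151, 151 and 162 TPM in sham and 106, 86.5 and 69.8 TPM in MI, a difference of -0.83 (SE 0.14, limma adjusted p = 0.00804), and it was called lower in all 4 fits. Rpl3 was at 158, 166 and 121 TPM in sham and 225, 278 and 531 TPM in MI, and was not called after rescaling without MI mouse 3. Rpl3l made up 48.8%, 47.5% and 57.3% of the summed Rpl3l and Rpl3 TPM in sham and 32.1%, 23.8% and 11.6% in MI. The shares did not overlap, and the lowest was in MI mouse 3. Rpl3 has processed pseudogenes whose reads could be split from it.

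The largest changes were in part members of these lists. Genes known only by a Gm or Rik symbol were not ranked, which leaves out Gm34302, at 168 ± 9.66 TPM in sham and 79.4 ± 30.1 TPM in MI (difference -1.14, and -1.59 rescaled). Where the mean reached 5 TPM and the groups did not overlap, the 10 largest rises were Comp, Sfrp2, Sprr1a, Cilp, Wisp2, Thbs4, Saa3, Angptl7, Mfap4 and Timp1. Comp, an oligomeric cartilage matrix protein, was at 4.70, 7.80 and 4.02 TPM in sham and 46.0, 152 and 79.0 TPM in MI, a difference of 3.72 (SE 0.49). Cilp, a matrix protein first described in cartilage, was at 2.02, 2.83 and 1.80 TPM in sham and 22.8, 42.2 and 27.2 TPM in MI, a difference of 3.27 (SE 0.32). Sprr1a, a small proline-rich protein known in stressed muscle and nerve, was at 0, 0.156 and 0.0785 TPM in sham and 6.14, 15.4 and 11.6 TPM in MI, a difference of 3.40 (SE 0.30, limma adjusted p = 0.00147). Angptl7, an angiopoietin-like secreted protein, was at 12.7, 44.8 and 19.6 TPM in MI and 1.90 to 2.33 TPM in sham. Saa3, an acute-phase protein, was at 13.4, 18.0 and 5.16 TPM in MI and was not called after rescaling (limma adjusted p = 0.0529). The 10 largest falls among the ranked genes were Ano10, Lgals4, Acot1, Fabp3-ps1, Gpr22, Adra1b, Rpl3l, Ttll1, Apbb1 and Phkg1. Lgals4, a galectin, was at 22.6, 21.9 and 18.9 TPM in sham and 9.23, 7.44 and 5.89 TPM in MI, a difference of -1.39 (SE 0.29). Acot1, an acyl-CoA thioesterase with near-identical relatives, fell from 11.9 ± 1.77 to 5.73 ± 0.711 TPM. Fabp3-ps1 is a pseudogene that could share reads with Fabp3. Ttll1, a tubulin-modifying enzyme, fell from 27.8 ± 2.20 to 15.4 ± 2.10 TPM and Phkg1, a phosphorylase kinase subunit of muscle, from 12.8 ± 2.80 to 6.87 ± 1.31 TPM. Gpr22, a receptor abundant in heart, was at 7.77, 9.18 and 11 TPM in sham and 6.10, 5.31 and 3.13 TPM in MI, and was not called after rescaling or without MI mouse 3. Among abundant ranked genes after rescaling, the largest falls were Rpl3l, Apbb1, Ech1, Rtn2, Car14 and Dhrs7c. Dhrs7c, a dehydrogenase of the sarcoplasmic reticulum, was at 111, 117 and 112 TPM in sham and 88.2, 71.7 and 58.0 TPM in MI, and Rtn2, a reticulon, at 69.9 ± 0.921 and 43.5 ± 8.79 TPM.

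Further genes called in all 4 fits, chosen after their values were seen, extend these groups. Fbp2, the muscle fructose bisphosphatase, had a difference of -0.75 (SE 0.12). Hopx, a homeodomain protein of cardiomyocytes, was at 232 ± 7.64 TPM in sham and 164 ± 28.6 TPM in MI, and Rxrg, a retinoid receptor, at 34.7 ± 0.733 and 23.8 ± 2.59 TPM. Nrg1, a growth factor for cardiomyocytes, was higher at 6.31 ± 3.21 TPM in MI against 0.861 ± 0.152 TPM in sham, and Meox1, a transcription factor of activated fibroblasts, at 18.8 ± 6.00 against 4.91 ± 0.319 TPM. Cthrc1, a marker of reparative fibroblasts, was at 5.70 ± 5.02 TPM against 0.423 ± 0.208 TPM, so its SD in MI was nearly as large as its mean.

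At the level of transcripts, 27769 were tested, with 2.66% called higher and 0.184% lower as deposited, 0.263% and 0.112% after rescaling, and 0.328% and 0.0504% without MI mouse 3. Of 724 genes with a called transcript, 626 were also called as a sum. Ano10, which encodes a membrane protein of the anoctamin family and lies on chromosome 9 at 122175874 to 122294423 (minus strand, GRCm38, GENCODE M21), was the only gene with called transcripts in opposite directions. As a sum Ano10 was at 65.0, 70.8 and 72.2 TPM in sham and 29.7, 19.7 and 21.2 TPM in MI. Its main transcript, ENSMUST00000216738.1, a short model of 680 bases, was at 59.6, 63.5 and 67.0 TPM in sham and 21.9, 11.3 and 9.8 TPM in MI, a difference of -2.15 (SE 0.23, limma adjusted p = 0.00686). The other, ENSMUST00000042546.3, of 2653 bases, was at 4.1, 4.7 and 3.0 TPM in sham and 7.5, 7.6 and 10.5 TPM in MI, a difference of 0.95 (SE 0.18, limma adjusted p = 0.0259). That rise was not called after rescaling (limma adjusted p = 0.0643) or without MI mouse 3 (limma adjusted p = 0.0679), whereas the fall of the main transcript was called in both. The main transcript's share of Ano10 TPM was 89.7% to 92.8% in sham and 74.0%, 57.1% and 46.4% in MI, and a share within a library does not depend on scaling. A retained-intron transcript of Ech1 fell from 75.1 to 25.7 TPM in the group means, and the Apbb1 transcript ENSMUST00000190369.6 from 9.02 to 2.48 TPM. The split of reads between transcripts is an estimate of the quantification and has no read count here.

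**Figure D5:**
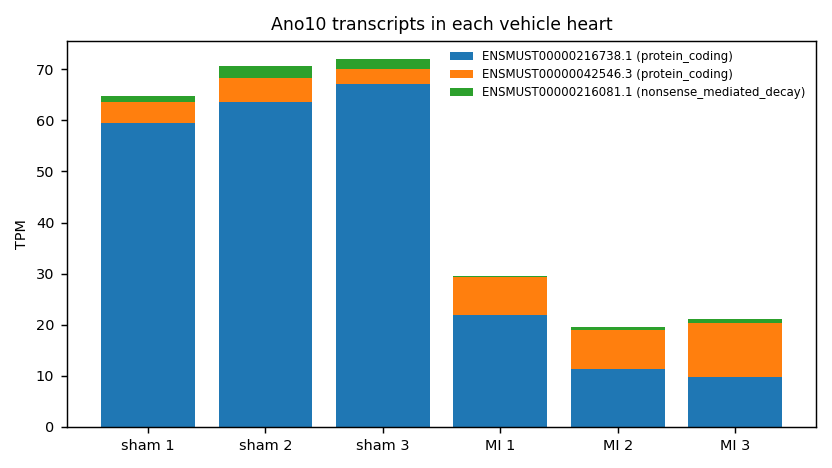
Stacked bars show the TPM of the 3 tested Ano10 transcripts in each vehicle heart. The transcript at the base falls from 59.6 to 67.0 TPM in sham to 9.8 to 21.9 TPM in MI, while the next one is between 3.0 and 4.7 TPM in sham and between 7.5 and 10.5 TPM in MI.

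The MI effect under vehicle was also set against that under weekly prednisone, by testing the difference between the effects in the 12 hearts with limma. The pair of effects have separate sham hearts. At an adjusted p under 0.05 the effects differed for 21.3% of genes as deposited, 8.67% after rescaling and 4.88% in both scalings. In both scalings they differed for 12 of the 41 genes of complexes II to V, 4 of 36 complex I genes, 4 of 22 TGF-beta family genes and 3 of 13 proteoglycan genes. They did so for 0 of the 13 stretch genes, 0 of the 8 activated fibroblast markers and 0 of the 30 genes of fatty acid uptake and oxidation. At a share of 4.88%, lists of this size would hold few such genes, so a count of 0 does not show equal effects. Ech1, left off the fatty acid list, did differ in both scalings. Mmrn1 had an MI effect of 1.27 under vehicle and -0.66 under prednisone.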

How the data were processed

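Per the labels' protocols, total RNA was cleaned on columns and made into stranded mRNA libraries. The authors deposited TPM values per transcript, 105129 rows whose columns each sum to 1000000 TPM. Trimmomatic, HISAT2, kallisto and the build mm10 are named, without versions or roles, in the submitters' processing notes. TPM carries no depth, and precision rests on 3 mice per group. A rise of abundant RNAs lowers the TPM of the rest.

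Transcripts were summed to genes by symbol, kept at 1 TPM in 3 of 12 libraries, transformed as log2(TPM + 1) and fitted with limma 3.58.1 (R 4.3.3, trended variance, Benjamini-Hochberg adjustment over all 13158 genes), with tables made in Python 3.11.15. Median-ratio rescaling used genes above 0 in all libraries. Positions came from GENCODE M21 and promoters from RefSeq (GRCm38.p6). Named genes, Gm and Rik symbols left out, were the 10 largest rises and 10 largest falls as deposited (mean of 5 TPM or more, groups apart), the 6 largest falls after rescaling (mean of 50 TPM or more), a few called or abundant members of 35 lists and 21 marker lists, and a set of fixed genes. Members and lists were chosen with earlier results of these data known. On simulated data, 54% of log2 changes of 1 and 91% of 2 were recovered in this comparison of 13158 genes, with 8.23% false among those called. The simulation changed 200 genes and gave every group the same spread. It had no outlying library and no shift of the median gene, so its rates may not hold for these hearts. Alternatives varied scaling, filter, pseudocount, fit, length and libraries. Some genes are not reported here.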

Additional observations from a re-analysis of the deposited data

Results flagged for a closer look

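The 17 genes below had an MI effect under vehicle that differed from the MI effect under weekly prednisone in both scalings. The test was limma on the difference itself in 12 hearts, and 4.88% of all genes passed it in both scalings. The list is not complete. Many of these genes were named for their change in vehicle hearts, which is part of the tested difference, so the choice favours larger effects under vehicle. Values are the vehicle effect minus the prednisone effect on the log2 scale, as deposited.

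Matrix genes with a larger effect under vehicle were Col3a1 at 1.94 (1.69 under vehicle and -0.25 under prednisone, limma adjusted p = 0.0063), Fmod at 2.09, Prelp at 1.72 and Timp2 at 1.47. Signalling genes were Tgfbr2 at 1.75, Fzd1, a Wnt receptor, at 1.57, and Igfbp4 at 1.44. The complement protease C1s1 was at 1.60. Vessel and macrophage genes were Lyve1 at 2.17 (1.43 and -0.74, limma adjusted p = 0.00601), Mmrn1 at 1.93, Plvap, of fenestrated endothelium, at 1.53 and Csf1r at 1.33. Cdkn2a was at 1.17. The difference was negative for Ech1 at -0.71, Cox7a1 at -0.63, Ndufv2 at -0.44 and Lgals4 at -1.97 (-1.39 under vehicle and 0.58 under prednisone).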

How the results depend on the processing

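With all 12 libraries, 2100 genes were called as deposited and 850 relative to the median gene. The first count became 1068 with no filter on low values, 4137 with gene-by-gene array weights (chosen after seeing the data, because the planned estimate did not converge), 583 with a length correction and 66 with that correction and the replicate block. With only the 6 vehicle libraries it was 2, or 0 after rescaling, where 2908 genes had an unadjusted limma p under 0.05. Leaving out each mouse in turn gave 120 to 5631 genes as deposited, and 0 to 1665 after rescaling (5 without sham mouse 2 and 90 without MI mouse 2). Without MI mouse 3 and rescaled it was 568. Rescaled leave-outs other than MI mouse 3 were also chosen after seeing the data. Without sham mouse 1 or 3 the rescaled count was 0, with 2896 and 2378 genes at an unadjusted limma p under 0.05.

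Mice with the same number belong to different animals, and their deviations did not move together (r = 0.00137, -0.539 and -0.58 across genes). Pairs of unlike number ran from -0.282 to 0.647, the highest for sham mouse 3 with MI mouse 2. Both mice had the lowest adipocyte marker sum of their group, 8.86 and 4.77 TPM, and the part of tissue content in these correlations was not tested. Used as a block all the same, the mouse numbers gave 1056 calls, or 129 after rescaling.

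Transcripts called were 789, and became 104 after rescaling and 105 without MI mouse 3. The difference between the vehicle and prednisone effects was called for 2797 genes, and for 1141 after rescaling. Of 720 list members 250 were called, and 155 without MI mouse 3. Of 104 called genes followed by name, 94 kept the call after rescaling, 84 without MI mouse 3, 57 without sham mouse 1, 47 without sham mouse 3, 83 with the block and 2 in the 6 vehicle libraries, and 0 changed sign in any setting run. Among uncalled genes, Pdk4 changed sign with array weights (0.11), without sham mouse 1 (0.081) and without MI mouse 1 (0.13), in a range of -0.48 to 0.13 over single mice left out. Median differences by transcript length ran from 0.26 to 0.41. TPM gives no depth, so no limit of detection can be stated.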
